A study of Homo sapiens with 10 samples.

Results

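RAB small GTPases form the largest branch of the RAS superfamily. The genes described here are the rows of the deposited count file whose symbol is RAB, a number and at most one further letter, kept where 2 libraries or more reached 10 counts. The count file held 63 such rows among 60898, and 62 met the threshold. The one that did not, RAB1C, is annotated as a processed pseudogene and had 0 counts in every library. Members just inside the threshold were RAB44, with 10 counts or more in 3 libraries, and RAB19 and RAB20, each with 4. RAB17 and RAB25 reached 10 counts in 5 libraries. RAB19, RAB20 and RAB44 met the threshold in knockout libraries alone, and RAB17 and RAB25 met it in those and 1 more. RAB3C and RAB26 met it through libraries other than KO, as did RAB41. A difference between KO and the other groups was therefore partly built into the choice of these genes. Their values in KO against WT, and in other groups against KO, are descriptions.

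A RAB protein switches between a GTP-bound form, which sits on a membrane and recruits effectors, and a GDP-bound form, which GDP dissociation inhibitor (GDI) carries through the cytosol. Exchange factors switch a RAB on, GTPase-activating proteins switch it off, and a geranylgeranyl lipid on cysteines at its C-terminus anchors it. Each RAB marks its own set of membranes, from early endosomes and the Golgi to secretory vesicles, and neurons and epithelia are known to use partly different paralogs for secretion and recycling.

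The study measured gene expression by RNA sequencing in cells described as neural progenitor cells (NPCs), grown from H1 cells, a long-established line of human embryonic stem cells taken from a blastocyst. The question was how losing the endosomal deubiquitinase STAMBP changes these cells, and whether added STAMBP or added CFLAR, an inhibitor of caspase-8, restores them. There were 5 groups with 2 libraries each: STAMBP knockout line KO1, STAMBP knockout line KO2, knockout cells given STAMBP (KO+STAMBP), knockout cells given CFLAR (KO+CFLAR), and unedited wild-type cells (WT). The labels give no treatment, no sampling time, no knockout allele, no promoter for the added genes and no statement of which knockout line received them. Every title carries the tag P3, whose meaning is not given. Nothing states that the 2 libraries of a group stem from different cultures. The p-values therefore reflect library-to-library spread that may be no more than technical.

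Library totals were 16495116 to 20832700 counts. Levels are given as counts per 1000000 (CPM), scaled by TMM factors, which correct for libraries in which a few genes take up many reads. STAMBP was at 16.9 to 19.5 CPM in the 4 KO libraries, 40.4 and 45.3 in KO+STAMBP, 42.9 and 40.0 in KO+CFLAR, and 43.4 and 47.2 in WT. STAMBP was thus reduced in KO and not absent, with a log2 fold change of -1.28 ± 0.07 against WT. CFLAR was at 247 to 264 CPM in the KO libraries, 32.1 in both KO+STAMBP libraries, 31.3 and 29.4 in KO+CFLAR, and 34.2 and 30.4 in WT. The libraries labelled KO+CFLAR thus had STAMBP above KO, by 1.15 ± 0.07 on the log2 scale, and no CFLAR above WT (-0.08 ± 0.07, adjusted p = 0.418). Both go against their label, and these samples are called the libraries labelled KO+CFLAR below. The NPC label was checked against marker genes. The summed level of 9 neural progenitor markers was 3199 to 3215 CPM in KO, 3807 to 3813 in KO+STAMBP, while the libraries labelled KO+CFLAR had 3903 to 3956, against 7235 to 7333 in WT. The sums hide a difference between these groups. In KO, 7 of the 9 were lower than WT and 1 higher, with a median log2 fold change of -3.39. The split was the same in KO+STAMBP and the libraries labelled KO+CFLAR, with medians of -0.70 and -0.71. The summed level of 11 epithelial markers was 8086 to 8547 CPM in KO, 63.5 to 65.2 in KO+STAMBP, while the libraries labelled KO+CFLAR had 55.0 to 57.7, against 33.3 to 35.5 in WT. In bulk libraries, fewer cells of a type and less RNA per cell cannot be told apart.

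The knockout lines and WT differed widely in their RAB genes. In KO against WT, 54 of 62 RAB genes passed the test (87.1%), 37 of them higher and 17 lower, at an adjusted p under 0.05 in edgeR's quasi-likelihood test. These counts, and those by role below, include RAB3C, RAB17, RAB19, RAB20, RAB25, RAB26 and RAB44, whose choice partly built in a difference. Over all 21063 genes tested, 76.2% were called in the same comparison, 36.8% as higher and 39.4% as lower. The median log2 fold change of the RAB genes was 0.31, against -0.04 over all genes. Among the 51 RAB genes with a mean of at least 5 CPM, 33 were higher, 15 lower and 3 not called, while 86.8% of all genes at that level were called, 43.1% as higher and 43.7% as lower. Most genes of a like level were thus called, RAB or not. With scaling by library size alone, 30 RAB genes were higher and 20 lower, and the median of all genes moved by -0.17 on the log2 scale. RAB4B, RAB11A, RAB14, RAB24, RAB31, RAB35 and RAB3D then no longer passed as higher, and RAB2B, RAB23 and RAB28 passed as lower.

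KO1 and KO2 were also each set against WT. In KO1 against WT, 37 were higher and 17 lower, with 72.9% of all genes called, 35.6% as higher and 37.3% as lower. In KO2 against WT, 37 were higher and 16 lower, with 73.1% of all genes called, 35.8% as higher and 37.3% as lower. Both comparisons use the same WT libraries. In KO1 against KO2 directly, 0 RAB genes passed the test in edgeR or in DESeq2, 1 had an unadjusted p under 0.05, and 0.157% of all genes were called, 0.133% as higher and 0.0237% as lower.

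The summed level of all 62 genes was 4510 to 4660 CPM in KO, 3152 to 3166 in KO+STAMBP, while the libraries labelled KO+CFLAR had 3090 to 3105, against 3394 in both WT libraries. By library size alone, the sums were 4187 to 4257 in KO, 3364 to 3375 in KO+STAMBP, while the libraries labelled KO+CFLAR had 3265 to 3286, against 3526 to 3535 in WT. The KO libraries were highest on both scales, and the groups did not overlap. No test was made of the sums.

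**Figure D1:**
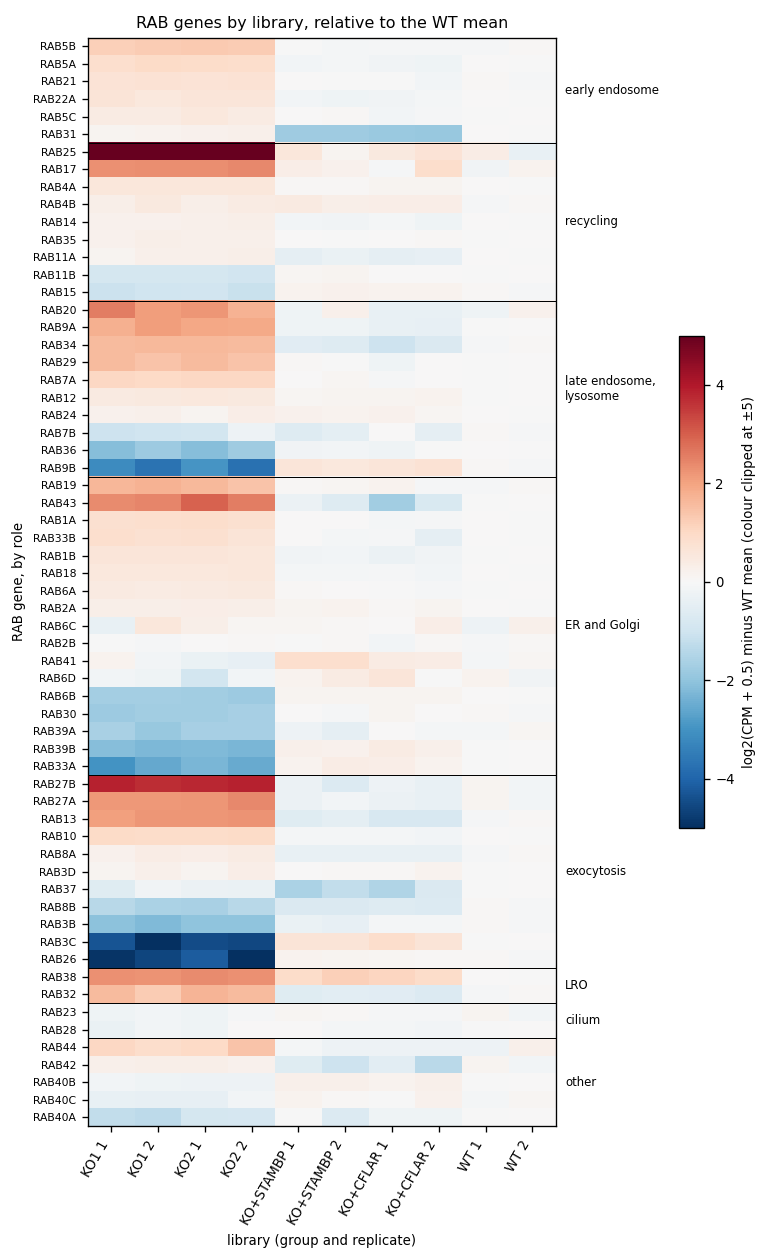
Level of each of the 62 RAB genes (rows, grouped by role) in each library (columns), as log2(CPM + 0.5) minus the mean of the 2 WT libraries, with colour clipped at 5. LRO stands for lysosome-related organelles. The 4 KO libraries resemble each other, with RAB25 and RAB27B far above WT and RAB3C and RAB26 far below it, and RAB31 is low in the 4 libraries labelled KO+STAMBP or KO+CFLAR.

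The largest RAB difference was in the RAB11 group, whose members return cargo from recycling endosomes to the cell surface. RAB25 is its epithelial member. It lies on chromosome 1 (GRCh38, 156061160 to 156070514, plus strand). None of its 50-base words occur in another gene. RAB25 and RAB11A were identical at 67.5% of aligned coding bases, RAB25 and RAB11B at 74.0%, and RAB11A and RAB11B at 73.7%. Their coding sequences hold 213, 216 and 218 codons. The last 60 coding bases before the stop codon are shown because the lipid is attached here, with the adjacent pair of cysteine codons in capitals (GENCODE 29 annotation, GRCh38 sequence):
RAB25: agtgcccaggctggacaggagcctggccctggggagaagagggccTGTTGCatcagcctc
RAB11A: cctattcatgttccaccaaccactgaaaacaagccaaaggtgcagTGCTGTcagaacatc
RAB11B: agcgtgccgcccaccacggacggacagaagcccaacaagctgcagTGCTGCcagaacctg
All of them end in a pair of cysteine codons followed by 3 more codons.

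RAB25 had 97.1, 106, 99.2 and 100.4 CPM in the KO libraries, 0.464 and 0.214 in KO+STAMBP, while the libraries labelled KO+CFLAR had 0.419 and 0.544, against 0.349 and 0 in WT. Every KO library was far above every library of the other groups, with no overlap. The log2 fold change in KO against WT was 9.24 ± 0.21 (SE), but the WT side rests on 6 counts in one library and 0 in the other. It was 8.14 without WT replicate 2, and 13.87 without WT replicate 1, where it is fitted against 0 counts and is no measure of size. RAB11A, the ubiquitous member, had 271, 289, 292 and 299 CPM in KO, against 246 and 244 in WT, a log2 fold change of 0.23 ± 0.04 (adjusted p = 7.08e-05) that did not pass the test with library-size scaling. RAB11B, which is abundant in brain, had 85.7, 84.6, 85.5 and 81.9 CPM in KO, against 155 and 161 in WT. It was lower in all 4 KO libraries, with a log2 fold change of -0.90 ± 0.04 (adjusted p = 8.37e-12).

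Within the RAB11 group, per kilobase of exon, RAB25 made up 40.4% to 42.3% of the summed level in KO and 0% to 0.194% in WT. RAB11B made up 22.9% to 24.9% in KO and 59.1% to 60.2% in WT. In KO, RAB25 ranked 5th of the 62 RAB genes by CPM per kilobase, against 58th in WT. Of the other recycling RABs, RAB17, which acts in epithelial transcytosis, had 2.26 to 2.54 CPM in KO against 0 and 0.147 in WT. The WT value rests on 3 counts, and the ratio was 29.7 with a 95% counting interval of 9.97 to 145. RAB4A, which drives fast recycling, rose by 0.57 ± 0.05 on the log2 scale. RAB14, which works between endosomes and Golgi, had 193, 189, 195 and 202 CPM in KO, against 166 and 163 in WT, a rise of 0.25 ± 0.04. RAB15, an endosomal RAB found mainly in neurons, had 22.7, 24.0, 24.7 and 22.1 CPM in KO against 50.1 and 46.0 in WT, and fell by 1.04 ± 0.06. Over the 9 recycling RABs, 7 rose and 2 fell, where 36.8% of all genes were higher and 39.4% lower, and RAB4B, RAB11A, RAB14 and RAB35 no longer passed with library-size scaling.

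Exocytosis and secretory vesicle RABs moved in both directions, with 6 higher, 4 lower and 1 not called among 11, beside 76.2% of all genes called. RAB27A and RAB27B dock secretory granules and multivesicular endosomes at the plasma membrane. RAB27B had 75.9, 67.7, 71.8 and 75.8 CPM in KO, against 5.24 and 4.30 in WT, a log2 fold change of 3.94 ± 0.11 (adjusted p = 9.25e-14). RAB27A had 29.8, 29.6, 30.8 and 34.6 CPM in KO, against 6.93 and 5.57 in WT, a log2 fold change of 2.33 ± 0.11. RAB13, which sits at epithelial tight junctions, had 144, 162, 159.7 and 165 CPM in KO, against 33.5 and 35.8 in WT, a log2 fold change of 2.18 ± 0.06. Of the 50-base words in RAB13 transcripts, 21.8% also occur in other genes. KO and WT did not overlap for any of these genes, in a comparison where 76.2% of all genes were called. The share of all genes without overlap was not counted, here or for the other genes described. RAB10, which carries cargo to the basolateral surface and moves glucose transporters, had 333, 325, 322 and 332 CPM in KO, against 171 in both WT libraries, a rise of 0.94 ± 0.03.

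The 4 exocytosis RABs that fell were RAB3B, RAB3C, RAB26 and RAB8B. RAB3C, a synaptic vesicle RAB on chromosome 5 (58582221 to 58859394, plus strand), had 0.496, 0.0652, 0.397 and 0.346 CPM in KO, against 18.9 and 19.8 in WT, a log2 fold change of -5.83 ± 0.21. RAB26, found on secretory granules and synaptic vesicles, lies on chromosome 16 (2140803 to 2154165, plus strand). It had 0.275, 0.456, 0.794 and 0.0577 CPM in KO, against 23.5 and 22.1 in WT, a log2 fold change of -5.88 ± 0.23. Neither gene exceeded 0.794 CPM in a KO library, where a floor of 3 counts corresponds to 0.165 to 0.198 CPM. RAB3B, also on synaptic vesicles, had 14.8, 13.2, 15.5 and 15.1 CPM in KO, against 65.3 and 60.9 in WT, a fall of 2.10 ± 0.06. RAB8B, a RAB of exocytosis at the cell surface, had 70.8, 61.3, 59.5 and 70.2 CPM in KO, against 192 and 178 in WT, a fall of 1.49 ± 0.06. Its paralog RAB8A rose by 0.32 ± 0.06. RAB3D, a secretory granule RAB, rose by 0.21 ± 0.06 and did not pass with library-size scaling or without WT replicate 1 (adjusted p = 0.0743). RAB37, also tied to secretion, had 0.606 to 0.977 CPM in KO, against 1.16 and 1.17 in WT, and was not called.

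Early endosome RABs were higher in KO for 6 of 6 members, with a median log2 fold change of 0.65, where 36.8% of all genes were called as higher. RAB5 proteins control early endosome fusion. RAB5B had 326, 344, 347 and 343 CPM in KO, against 137 and 146 in WT, a log2 fold change of 1.26 ± 0.04 (adjusted p = 3.04e-13). RAB5A had 155, 165, 161 and 159.9 CPM in KO, against 86.3 and 85 in WT, a rise of 0.90 ± 0.04. RAB5C had 128, 125, 136 and 127 CPM in KO, against 93.6 and 96.2 in WT, a rise of 0.44 ± 0.04. The KO libraries lay above both WT libraries for each RAB5 gene. Among the RAB5 genes, reads of RAB5C are the least certain, since 24.7% of its 50-base words also occur elsewhere in the annotation. RAB31, which carries cargo from the Golgi to endosomes, rose by 0.20 ± 0.04 and did not pass with library-size scaling. RAB21, which moves integrins, and RAB22A, a RAB of endosomal recycling, rose by 0.71 ± 0.05 and 0.60 ± 0.05.

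Late endosome and lysosome RABs were higher for 7 of 10 members and lower for 3, beside 76.2% of all genes called. RAB7A directs late endosomes to lysosomes and had the highest level per kilobase of the 62 genes in KO and WT, at 132 and 64.7 CPM per kilobase. RAB11B was highest in KO+STAMBP, at 69.1 CPM per kilobase against 67.1 for RAB7A, and in the libraries labelled KO+CFLAR, at 64.7 against 63.5. RAB7A had 359, 349.7, 359.8 and 362 CPM in KO, against 174 and 178 in WT, a log2 fold change of 1.03 ± 0.04 (adjusted p = 1.50e-12). RAB7B, a distinct late endosomal protein, had 0.771 to 1.67 CPM in KO, against 2.21 and 1.96 in WT, and fell by 1.05 ± 0.32. In KO2 alone against WT, where it had 0.860 and 1.67 CPM, RAB7B was not called. RAB9A and RAB9B, which return receptors from late endosomes to the Golgi, went in opposite directions. RAB9A had 49.7, 62.6, 56.4 and 54.7 CPM in KO, against 14.1 and 14.3 in WT, a log2 fold change of 1.97 ± 0.09. RAB9B had 1.38, 0.782, 1.65 and 0.751 CPM in KO, against 16.5 and 15.5 in WT, a log2 fold change of -3.80 ± 0.17. Per kilobase, RAB9A was 98.4% to 99.3% of the pair in KO, against 60.2% to 62.1% in WT.

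RAB34, which positions lysosomes, had 68.1, 70.8, 69.6 and 67.7 CPM in KO, against 21.5 and 23.6 in WT, a log2 fold change of 1.61 ± 0.07. Its paralog RAB36 had 7.16, 8.93, 7.21 and 9.30 CPM in KO, against 33.5 and 32.1 in WT, a log2 fold change of -2.01 ± 0.10. RAB34 averaged 91.3% of this pair per kilobase in KO and 45.9% in WT. RAB29, a partner of the kinase LRRK2, had 25.9, 23.4, 25.9 and 23.2 CPM in KO, against 8.21 and 8.61 in WT, a rise of 1.55 ± 0.10. RAB20, a RAB of phagosome maturation, had 3.30, 2.28, 2.45 and 1.67 CPM in KO, against 0.0582 and 0.244 in WT, a log2 fold change of 3.87 ± 0.59. RAB12 rose by 0.49 ± 0.04, and RAB24, linked to autophagy, by 0.23 ± 0.08. The RAB24 call was lost with library-size scaling, without a filter on low counts, and without either WT library or KO2 replicate 2 (adjusted p = 0.0547 to 0.525). Of its 50-base words, 38.2% also occur in other genes, most of them in MXD3.

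The 17 RABs of the endoplasmic reticulum and Golgi comprised 8 that rose, 5 that fell and 4 not called, a share called like the 76.2% of all genes. Transport from the endoplasmic reticulum to the Golgi depends on RAB1A and RAB1B. RAB1A had 265, 272, 281 and 269 CPM in KO, against 154 and 153 in WT, a rise of 0.82 ± 0.04 on the log2 scale. RAB1B had 134, 135, 135 and 132 CPM in KO, against 87.1 and 90.3 in WT, a rise of 0.59 ± 0.04. RAB2A, which acts between Golgi and lysosomes, had 207, 204, 212 and 208 CPM in KO, against 169 and 167 in WT. All KO libraries lay above both WT libraries for these genes. RAB6A, the general Golgi paralog, had 257, 251, 257 and 265 CPM in KO, against 182 and 192 in WT, a rise of 0.46 ± 0.03. RAB6B, its neuronal paralog, had 36.7, 36.9, 36.2 and 33.5 CPM in KO, against 123 and 118 in WT, a fall of 1.75 ± 0.04. RAB6C and RAB6D share 55.8% and 55.0% of their 50-base words with other genes, RAB6A among them, so their reads are uncertain, and neither was called. RAB33B, which acts in Golgi traffic and autophagy, had 26.0, 25.0, 25.3 and 22.9 CPM in KO, against 14.8 and 14.3 in WT, and its log2 fold change was 0.77 ± 0.11. RAB33A, its paralog found in brain and immune cells, had 0.606, 0.977, 1.32 and 1.04 CPM in KO, against 8.09 and 8.51 in WT, and its log2 fold change was -3.11 ± 0.18.

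RAB30, a Golgi RAB, had 18.2, 19.1, 18.9 and 20.04 CPM in KO, against 67.2 and 62.2 in WT, a fall of 1.76 ± 0.06. RAB39B, whose mutation causes X-linked intellectual disability with parkinsonism, had 4.35, 4.04, 4.10 and 3.87 CPM in KO, against 20.5 and 21.3 in WT, a fall of 2.35 ± 0.09. RAB39A had 6, 4.95, 5.82 and 5.89 CPM in KO, against 18.5 and 20.8 in WT, a fall of 1.79 ± 0.11. The KO and WT libraries did not overlap for RAB30, RAB39A or RAB39B. RAB43 had 39.0, 40.3, 57.8 and 44.4 CPM in KO, against 6.98 and 7.24 in WT, but 80% of its 50-base words also occur in other genes, most of them in the ISY1-RAB43 readthrough, so its log2 fold change of 2.66 ± 0.18 cannot be assigned to RAB43 alone. RAB19 had 0.924 to 1.24 CPM in KO and 1 count in WT, a ratio of 41.7 with a 95% counting interval of 7.25 to 1668. RAB18, which acts at the endoplasmic reticulum and on lipid droplets, rose by 0.53 ± 0.04. RAB41 had 0.231 to 0.606 CPM in KO, against 0.407 and 0.538 in WT, and was not called. RAB2B was at 43.5 to 47.8 CPM in KO and at 44.1 and 47.3 in WT.

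Both RABs of lysosome-related organelles rose, where 36.8% of all genes were higher. RAB38, which delivers enzymes to melanosomes, had 23.4, 22.5, 24.5 and 22.9 CPM in KO, against 4.36 and 4.35 in WT, a log2 fold change of 2.42 ± 0.12 (adjusted p = 1.07e-10). RAB32, its paralog, had 21.8, 17.3, 23.2 and 21.2 CPM in KO, against 6.52 and 7.19 in WT, a log2 fold change of 1.60 ± 0.12. The melanocyte genes TYR and DCT, whose products RAB32 and RAB38 sort, averaged 0 and 0.475 CPM in KO, against 6.48 and 45.6 in WT. Of 5 melanocyte markers, 1 was higher and 2 were lower in KO. Their part in these differences was not tested. The ciliary RABs RAB23, a brake on hedgehog signalling, and RAB28 were not called, with log2 fold changes of -0.15 ± 0.08 and -0.17 ± 0.09. In KO1 alone against WT, 1 of these 2 genes was called as lower, and in KO2 alone neither was called. BAG2, on the opposite strand, overlaps 2842 of the 4926 exon bases of RAB23. The strand setting is not given, so the RAB23 reads are uncertain. Of the remaining 5 genes, those of the RAB40 group, which recruit a cullin ubiquitin ligase, fell. RAB40A had 1.76, 1.63, 2.38 and 2.48 CPM in KO, against 4.77 and 4.89 in WT (adjusted p = 9.12e-05), and RAB40B and RAB40C fell by 0.23 ± 0.09 and 0.34 ± 0.09. The RAB40B call was lost with DESeq2 (adjusted p = 0.158), with relative log expression scaling, without a filter on low counts, with the 2 groups fitted alone, and without either WT library or replicate 2 of KO1 or KO2 (adjusted p = 0.0525 to 0.128). The RAB40C call was lost without WT replicate 2 (adjusted p = 0.0803). RAB44 had 0.586 to 1.10 CPM in KO, against 0 and 0.196 in WT, and RAB42, at 3.18 to 3.45 CPM in KO against 3.03 and 2.40 in WT, was not called.

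**Figure D2:**
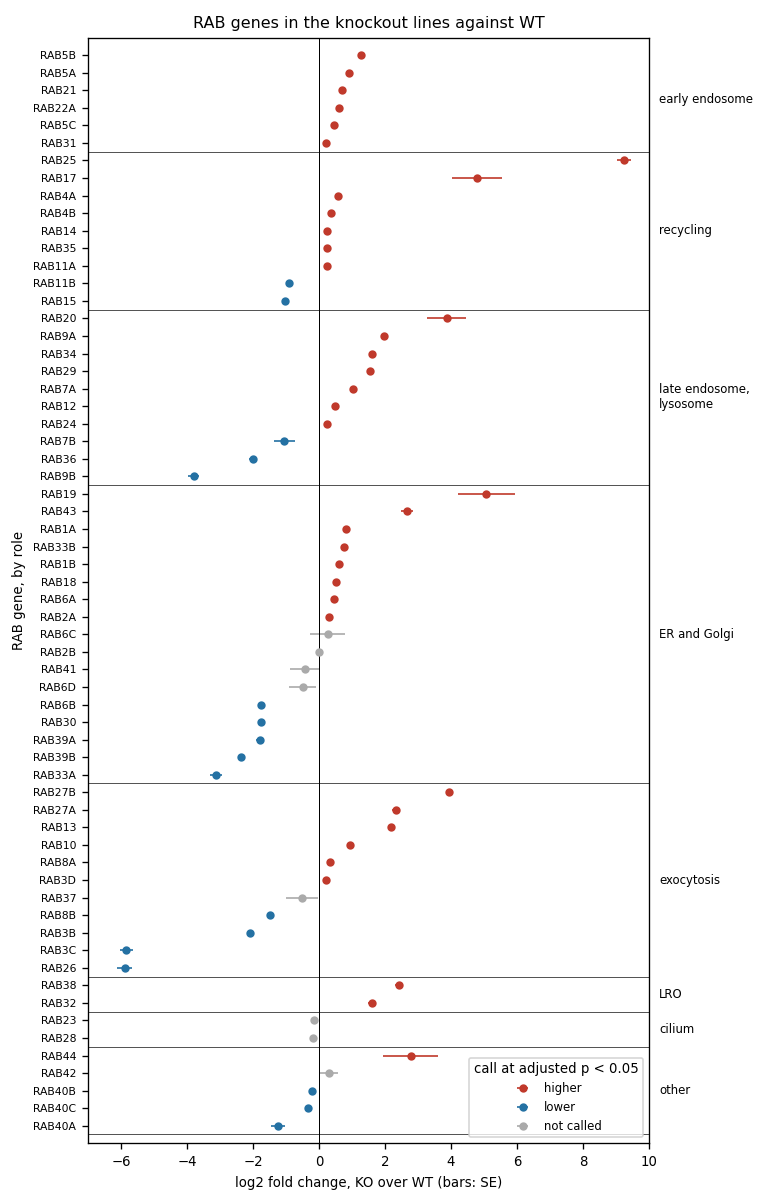
Log2 fold change of each RAB gene in KO over WT (horizontal axis, bars are SE), grouped by role; red points are higher, blue lower and grey not called at an adjusted p under 0.05. RAB25 at 9.24 lies farthest right, RAB26 at -5.88 farthest left, and the early endosome genes all lie right of 0.

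Markers of other cell types also differed between KO and WT, where 36.8% of all genes were higher and 39.4% lower. Of 11 epithelial markers, 10 were higher in KO and 1 was not called, and of 7 neuron markers, all 7 were lower. Summed neuron markers were at 822 to 845 CPM in KO, against 3679 to 3731 in WT. Summed mesenchyme markers were at 2051 to 2130 CPM in KO, against 99.8 to 104 in WT, with 3 of 5 higher and 1 lower. Pluripotent markers were at 23.2 to 26.8 CPM in KO, against 2.15 to 2.93 in WT, with 2 of 3 tested higher. Endothelial markers were at 28.2 to 29.2 CPM in KO, against 5.24 to 5.82 in WT, with 3 of 4 higher and 1 lower. Haematopoietic markers were at 4.68 to 6.18 CPM in KO, against 17.6 to 18.6 in WT, with 1 of 3 tested higher and 2 lower. KRT5, a basal epithelial keratin, was the epithelial marker not called, with a log2 fold change of -0.40 ± 0.27. The part of any cell type in the RAB differences was not tested.

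**Figure D3:**
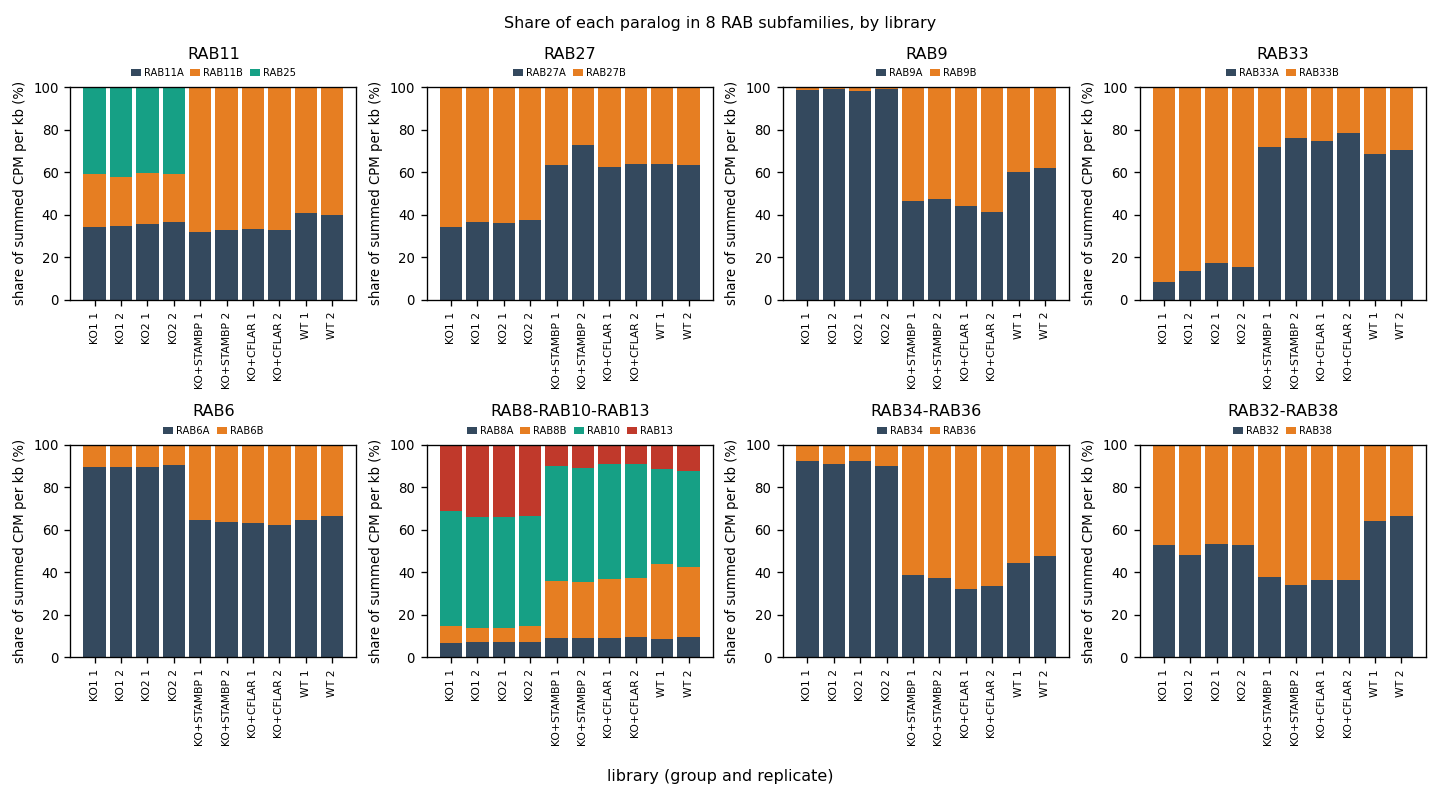
Share of each paralog in the summed CPM per kilobase of its subfamily (vertical axis, %) in each library (horizontal axis) for 8 RAB subfamilies. RAB25 takes 40.4% to 42.3% of the RAB11 group in the KO libraries and at most 0.327% elsewhere, and RAB9A takes at least 98.4% of the RAB9 pair in KO.

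Promoter windows of 250 bases before to 50 after a start site (RefSeq, GRCh38.p14) were found for 49 of the 62 genes, with 70 start sites. No entry was found for RAB1A, RAB2A, RAB12, RAB15, RAB20, RAB26, RAB33A, RAB33B, RAB36, RAB37, RAB38, RAB39B and RAB44. They were searched on both strands for the AP-1 motif TGANTCA, the cyclic AMP response element TGACGTCA, the E-box CAGGTG, and the grainyhead-like motif AACNNGTT. The E-box reads CACCTG on the opposite strand. The window of RAB25 and those windows of RAB27B and RAB13 that hold AP-1 motifs are shown because these are 3 epithelial or secretory genes with large rises, with the matches in capitals:
RAB25, chr1:156060910-156061209, plus strand: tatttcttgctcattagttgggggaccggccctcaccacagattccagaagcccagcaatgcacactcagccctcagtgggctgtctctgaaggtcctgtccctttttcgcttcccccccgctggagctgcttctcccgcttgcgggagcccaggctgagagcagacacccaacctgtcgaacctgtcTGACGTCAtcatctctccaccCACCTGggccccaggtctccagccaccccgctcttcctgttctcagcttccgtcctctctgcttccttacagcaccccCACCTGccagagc
RAB27B, chr18:54828227-54828526, plus strand: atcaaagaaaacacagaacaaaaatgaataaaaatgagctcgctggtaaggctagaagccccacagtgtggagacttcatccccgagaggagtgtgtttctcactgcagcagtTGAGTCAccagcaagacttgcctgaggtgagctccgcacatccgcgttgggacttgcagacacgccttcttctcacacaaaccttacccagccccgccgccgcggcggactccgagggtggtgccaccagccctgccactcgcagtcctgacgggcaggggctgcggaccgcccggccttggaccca
RAB13, chr1:153985344-153985643, minus strand: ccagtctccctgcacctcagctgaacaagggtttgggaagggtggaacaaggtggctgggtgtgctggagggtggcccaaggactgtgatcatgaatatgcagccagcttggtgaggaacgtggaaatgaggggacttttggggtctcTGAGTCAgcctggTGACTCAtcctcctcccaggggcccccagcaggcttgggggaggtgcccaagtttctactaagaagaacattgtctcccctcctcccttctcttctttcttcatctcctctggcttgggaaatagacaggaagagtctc
The RAB25 window holds the cyclic AMP response element at base 189 and the E-box at bases 210 and 288, counted from 1 at its 5′ end. The RAB27B window holds AP-1 at base 114, and the RAB13 window at bases 149 and 162. No 2 of these matches overlap. RAB27B has another window at chr18:54717607-54717906, and RAB13 another at chr1:153986290-153986589. Those windows include the annotated 5′ end of their gene and held none of the motifs searched.

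AP-1 letters were present in 7 of 43 start sites of RAB genes higher in KO (16.3%), in 1 of 18 of those lower (5.56%), and in 7.71% of all 35116 promoter windows. The start sites with AP-1 belonged to RAB5B, RAB13, RAB27A, RAB27B and RAB34 among the genes that rose and to RAB3B among those that fell. E-box letters were present in 9 of 43 start sites of genes higher in KO (20.9%), in 2 of 18 of those lower (11.1%), and in 20.6% of all windows. Grainyhead-like letters were in 0 of 43 and 1 of 18, against 3.52% of all windows, and the cyclic AMP element in 1 of 43 and 0 of 18, against 1.85%. Start sites of one gene can share bases and are not independent. These counts describe letters in the windows and no factor binding.

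The regulators of RABs were described from lists of genes. Of 13 genes for prenylation, GDI and membrane delivery, 10 were higher in KO, where 36.8% of all genes were higher. Their median log2 fold change was 0.38, against -0.04 over all genes. RABGGTB, the catalytic subunit that attaches the lipid, averaged 95.8 ± 2.57 CPM in KO (SD, n = 4) and 35.5 ± 3.11 in WT (SD, n = 2). YIPF2 and YIPF5, Golgi membrane proteins of the YIP family, averaged 67.5 and 106 CPM in KO, against 15.6 and 39.7 in WT. GDI2, the widely expressed GDI, rose by 0.38 ± 0.03.

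Of 44 exchange factors tested, 27 were higher and 14 lower, with a median of 0.45, where 36.8% of all genes were higher and 39.4% lower. ALS2CL, a RAB5 pathway protein, averaged 105 CPM in KO and 1.47 in WT, and DENND1C, an exchange factor for RAB35, 21.6 CPM in KO and 0.326 in WT. DENND2C averaged 44.4 CPM in KO and 2.01 in WT. Among those that fell, DENND6B averaged 8.11 CPM in KO and 48.2 in WT, DENND2A 23.1 in KO and 87.6 in WT, and DENND5B 32.7 in KO and 108 in WT. Of 40 GTPase-activating proteins tested, 19 were higher and 15 lower, with a median of 0.11. TBC1D2, which acts on RAB7, averaged 44.9 CPM in KO and 2.14 in WT, and TBC1D8 averaged 40.8 in KO and 7.17 in WT. TBC1D16 averaged 57.5 CPM in KO and 238 in WT, and TBC1D30 3.27 in KO and 17.5 in WT.

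Of 67 effectors tested, 37 were higher and 21 lower, with a median of 0.29. The 3 largest rises above a mean of 5 CPM were in MLPH, SYTL5 and RAB11FIP1. RAB11FIP1, which binds the RAB11 group, averaged 473 ± 3.02 CPM in KO (SD, n = 4) and 4.66 ± 1.06 in WT (SD, n = 2). MLPH, the adaptor between RAB27A and myosin Va, averaged 28.6 ± 0.566 CPM in KO and had 1 count in WT. SYTL5, a RAB27 effector, averaged 21.6 CPM in KO and 0.102 in WT. RPH3A and RIMS1, effectors of the RAB3 group at synapses, averaged 0.280 and 2.15 CPM in KO, against 70.1 and 33.7 in WT. BICD1, which links RAB6 vesicles to dynein, averaged 36.7 CPM in KO and 194 in WT. The shares called in these lists are to be read beside the 76.2% of all genes called, 36.8% as higher and 39.4% as lower.

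**Figure D4:**
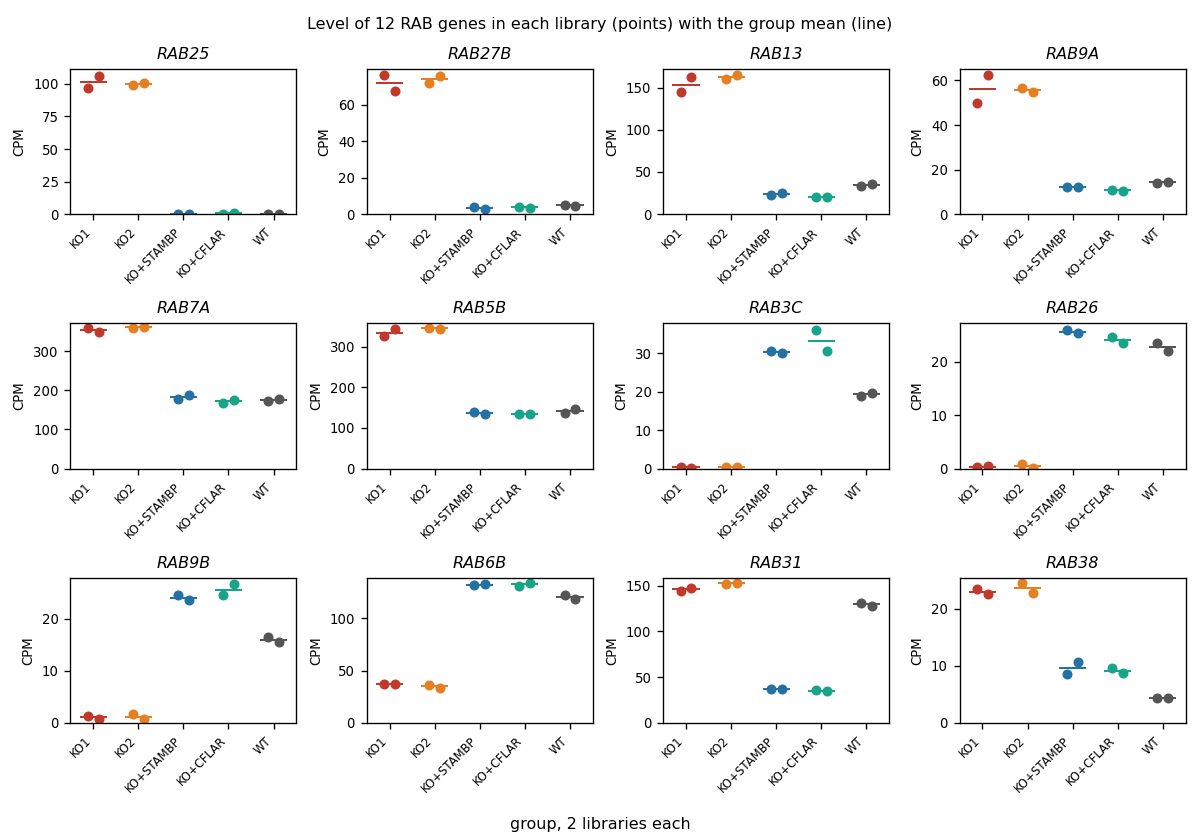
Level in CPM (vertical axis) of 12 RAB genes in each library (points) by group, with the group mean as a line. RAB25, RAB27B, RAB13 and RAB9A are high in the KO libraries alone, RAB3C, RAB26 and RAB9B are near 0 there, RAB31 is low in the 4 libraries labelled KO+STAMBP or KO+CFLAR alone, and RAB38 lies between KO and WT in them.

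The libraries labelled KO+STAMBP and KO+CFLAR were set against KO and against WT. In KO+STAMBP against KO, 56 RAB genes passed the test, 19 higher and 37 lower, with 77.9% of all genes called, 40.1% as higher and 37.8% as lower. The median log2 fold change was -0.41, against 0.04 over all genes. In the libraries labelled KO+CFLAR against KO, 55 passed, 19 higher and 36 lower, with 78% of all genes called, 40% as higher and 38% as lower, and a median of -0.47, against 0.04. The genes tested include RAB3C, RAB17, RAB19, RAB20, RAB25, RAB26, RAB41 and RAB44, whose choice partly built in a difference from KO. These comparisons use the same KO libraries as the comparison of KO with WT, so a gene that deviated in KO enters both. RAB25 had a log2 fold change of -8.18 ± 0.19 in KO+STAMBP against KO, and of -7.68 ± 0.17 for the libraries labelled KO+CFLAR. RAB3C had 30.6 and 30.0 CPM in KO+STAMBP, while the libraries labelled KO+CFLAR had 36.0 and 30.5, against at most 0.496 in KO.

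Against WT, 24 RAB genes differed in KO+STAMBP, 9 higher and 15 lower, with 34.9% of all genes called, 16.4% as higher and 18.5% as lower. In the libraries labelled KO+CFLAR, 23 differed from WT, 7 higher and 16 lower, with 33.7% of all genes called, 15.8% as higher and 17.9% as lower. The medians were -0.0026 and -0.08, against 0.0053 and 0.0052 over all genes. The comparisons share the WT libraries. With library-size scaling the split in KO+STAMBP was 13 higher and 13 lower. The count in KO+STAMBP was 14 without replicate 2 of that group and 15 without WT replicate 2, and the count in the libraries labelled KO+CFLAR was 15 without replicate 2 of that group.

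RAB31 was the called RAB gene above a mean of 5 CPM that lay farthest from WT in KO+STAMBP and the libraries labelled KO+CFLAR. It lies on chromosome 18 (9708165 to 9862551, plus strand). It had 37.2 and 37.6 CPM in KO+STAMBP, while the libraries labelled KO+CFLAR had 35.7 and 34.3, against 131 and 128 in WT, while the KO libraries had 144 to 153. Its log2 fold change against WT was -1.79 ± 0.05 in KO+STAMBP (adjusted p = 2.04e-12) and -1.89 ± 0.05 in the libraries labelled KO+CFLAR (adjusted p = 9.83e-13). These 4 libraries did not overlap with the other 6. RAB22A, the other member of its subfamily, was at 55.5 and 52.7 CPM in KO+STAMBP, while the libraries labelled KO+CFLAR had 54.9 and 57.8, against 62.2 and 61.1 in WT. Neural progenitor markers were also below WT in these groups, with 7 of 9 lower and 1 higher in each and medians of -0.70 and -0.71. The same split was seen in KO, with a median of -3.39. Summed neuron markers were above WT, at 4807 to 4825 CPM in KO+STAMBP, with 4845 to 4880 in the libraries labelled KO+CFLAR. Of the 7 neuron markers, KO+STAMBP had 5 above WT and 2 below it. For the libraries labelled KO+CFLAR, 5 were higher than WT and 1 was lower. The part of these markers in the RAB31 difference was not tested.

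RAB38 was the RAB gene above a mean of 5 CPM with the largest called excess over WT in the same 4 libraries. It had 8.61 and 10.6 CPM in KO+STAMBP, while the libraries labelled KO+CFLAR had 9.59 and 8.71, against 4.36 and 4.35 in WT. The log2 fold changes were 1.14 ± 0.14 (adjusted p = 1.92e-05) and 1.07 ± 0.14 (adjusted p = 3.37e-05). Melanocyte markers were higher in the same libraries, at a summed 311 to 313 CPM in KO+STAMBP, while the libraries labelled KO+CFLAR had 239 to 242, against 113 in WT. DCT averaged 166 and 132 CPM in these groups, against 45.6 in WT, and their part in the RAB38 difference was not tested. RAB32 was lower than WT in both, with log2 fold changes of -0.62 ± 0.16 and -0.67 ± 0.16, and the call in KO+STAMBP was lost without replicate 1 of that group (adjusted p = 0.0504) or WT replicate 2 (adjusted p = 0.0656).

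RAB3C and RAB9B, which were nearly lost in KO, exceeded WT in the same 4 libraries. RAB3C rose by 0.65 ± 0.12 in KO+STAMBP and by 0.78 ± 0.12 in the libraries labelled KO+CFLAR. RAB9B had 24.5 and 23.5 CPM in KO+STAMBP, while the libraries labelled KO+CFLAR had 24.5 and 26.6, against 16.5 and 15.5 in WT, with log2 fold changes of 0.59 ± 0.13 and 0.68 ± 0.13. RAB4B and RAB6B were also higher in each, by 0.40 ± 0.10 and 0.13 ± 0.04 in KO+STAMBP and by 0.34 ± 0.10 and 0.14 ± 0.04 in the libraries labelled KO+CFLAR. Of the 50-base words of RAB4B, 37.7% also occur in other genes, the RAB4B-EGLN2 readthrough above all. The RAB4B and RAB6B calls were lost in both groups when single libraries were left out, RAB4B without WT replicate 1 (adjusted p = 0.063 and 0.128) and RAB6B without WT replicate 2 (adjusted p = 0.178 and 0.171).

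Several RAB genes were below WT in these groups. RAB8B had 113 and 111 CPM in KO+STAMBP, while the libraries labelled KO+CFLAR had 117 and 115, against 192 and 178 in WT, with log2 fold changes of -0.72 ± 0.07 and -0.67 ± 0.07. RAB13 had 22.4 and 24.6 CPM in KO+STAMBP, while the libraries labelled KO+CFLAR had 19.7 and 19.9, against 33.5 and 35.8 in WT, with log2 fold changes of -0.56 ± 0.08 and -0.81 ± 0.08. All 4 of these libraries were below both WT libraries for RAB8B and RAB13. RAB37 was called as lower in both, at 0.0516 and 0.214 CPM in KO+STAMBP, while the libraries labelled KO+CFLAR had 0.0932 and 0.499, against 1.16 and 1.17 in WT. The RAB37 call was lost without replicate 1 of KO+STAMBP (adjusted p = 0.0619), and for the libraries labelled KO+CFLAR without their replicate 1 or either WT library (adjusted p = 0.0889 to 0.211). RAB34 had 14.9 and 14.2 CPM in KO+STAMBP, while the libraries labelled KO+CFLAR had 10.8 and 13.4, against 21.5 and 23.6 in WT. RAB13 and RAB34 were thus above WT in KO and below it in these 4 libraries. RAB42 had 1.60 and 1.07 CPM in KO+STAMBP, while the libraries labelled KO+CFLAR had 1.72 and 0.771, against 3.03 and 2.40 in WT. Its call was lost in both groups without WT replicate 1 (adjusted p = 0.172 and 0.121) and without replicate 2 of the group itself (adjusted p = 0.229 and 0.194). RAB43, whose reads are shared as described, had 5.78 and 4.33 CPM in KO+STAMBP, while the libraries labelled KO+CFLAR had 1.77 and 4.04, against 6.98 and 7.24 in WT, and was called against WT in the libraries labelled KO+CFLAR (adjusted p = 0.00207) and not in KO+STAMBP (adjusted p = 0.16), and these groups did not differ from each other past the threshold (adjusted p = 0.262). RAB11A was also below WT, with log2 fold changes of -0.38 ± 0.04 and -0.43 ± 0.04. RAB20 had 0 counts in the libraries labelled KO+CFLAR and 6 in WT, at least 2.31-fold lower than WT with 3 counts over the group as the floor (adjusted p = 0.0495). That call was lost with both other scalings (adjusted p = 0.0501 and 0.051), without any KO library or either library labelled KO+CFLAR (adjusted p = 0.0546 to 0.149), and without WT replicate 2 (adjusted p = 0.319).

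Set against KO+STAMBP, the libraries labelled KO+CFLAR differed in 1 RAB gene. RAB3B had 59.2 and 59.6 CPM in the libraries labelled KO+CFLAR, against 49.6 and 47.0 in KO+STAMBP, a log2 difference of 0.30 ± 0.06 (edgeR adjusted p = 0.0362), while 1.09% of all genes were called, 0.627% as higher and 0.461% as lower. A further 9 RAB genes had an unadjusted p under 0.05 without passing the test, and the RAB3B call was lost without any one library of these 2 groups (adjusted p = 0.0853 to 0.348) and without either KO2 library (adjusted p = 0.052).

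**Figure D5:**
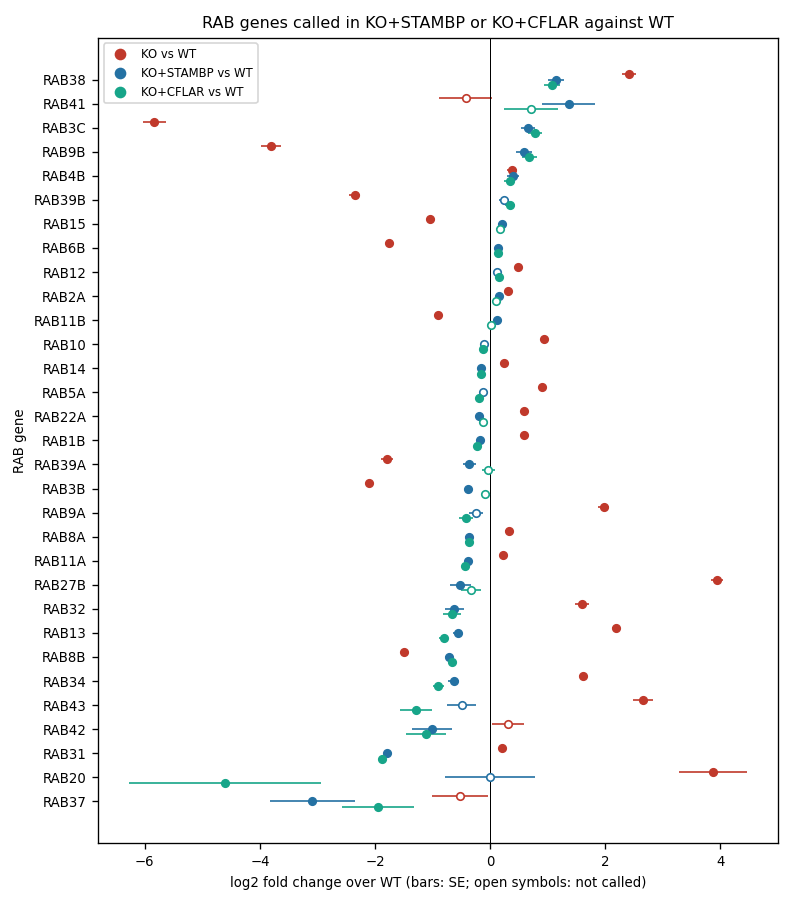
Log2 fold change over WT (horizontal axis, bars are SE) of RAB genes called in KO+STAMBP or the libraries labelled KO+CFLAR, for KO (red), KO+STAMBP (blue) and the libraries labelled KO+CFLAR (green); open symbols were not called. RAB31 lies near 0 in KO and at -1.79 and -1.89 in these groups, and RAB38 lies right of 0 in all 3. The fitted value of RAB20 in the libraries labelled KO+CFLAR rests on 0 counts.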

How the data were processed

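RNA sequencing counts per gene were analysed for 10 libraries in 5 groups. The deposited values are raw whole-number counts of reads for each gene. Per the submitters' processing notes, fastp 0.20.0, RSEM 1.2.4 and DESeq2 were used with hg38 or GRCh38, with no role or order given. Whether RSEM estimates were rounded, the annotation release and the strand setting are not given in the sources used here, so a gene's reads may include those of a gene overlapping it on either strand. Library totals were 16495116 to 20832700 counts, and a floor of 3 counts and the 95% intervals cover counting error only.

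From these counts, edgeR 4.0.16 in R 4.3.3 fitted a quasi-likelihood model with TMM factors, filterByExpr and 1 mean per group over all 10 libraries (5 residual degrees of freedom), with Benjamini-Hochberg adjustment over 21063 genes. KO is the equal-weight mean of KO1 and KO2. Alternatives were DESeq2 1.42.0, other scalings and filters, the replicate number as a block, fewer groups and each library left out. All 62 RAB genes were tested. Positions, exon lengths and the shares of 50-base words found in other genes come from GENCODE 29.

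Values per library are given for the 15 largest rises and 15 largest falls in KO and the 6 largest each way against WT in KO+STAMBP or the libraries labelled KO+CFLAR among called RAB genes above a mean of 1 CPM, for the 10 highest per kilobase, for genes called between these groups, and for the RAB5, RAB7, RAB11 and RAB27 groups. For regulators, up to 3 rises and 3 falls per list above a mean of 5 CPM are named, and GDI2 is named outside this rule. The members and lists were chosen with earlier results of these data known. One family member and one regulator are not reported here.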

Additional observations from a re-analysis of the deposited data

Results flagged for a closer look

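RAB3B differed between the libraries labelled KO+CFLAR and KO+STAMBP. The difference of the libraries labelled KO+CFLAR from KO+STAMBP was 0.298 ± 0.061 on the log2 scale (edgeR adjusted p = 0.0362), and both libraries labelled KO+CFLAR were above both KO+STAMBP libraries. Its log2 fold change against WT was -0.09 ± 0.06 in the libraries labelled KO+CFLAR and -0.38 ± 0.06 in KO+STAMBP. The call was lost without any one library of these 2 groups (adjusted p = 0.0853 to 0.348) and without either KO2 library (adjusted p = 0.052).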

How the results depend on the processing

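The counts of RAB genes in KO against WT were 50 to 54 with each library left out in turn. They were 50 to 54 in KO1 and 48 to 53 in KO2 against WT. They were 51 to 56 in KO+STAMBP against KO and 51 to 54 against KO for the libraries labelled KO+CFLAR. Against WT they were 14 to 24 in KO+STAMBP and 15 to 23 in the libraries labelled KO+CFLAR, and 0 to 1 between these groups. Without a filter on low counts, 2 RAB genes differed between these groups (1 higher, 1 lower) and 1 between KO1 and KO2, and the cause was not tested. With library-size scaling, 4 log2 fold changes changed sign: in KO+STAMBP against KO, RAB24 was at 0.19, RAB2A at 0.057 and RAB3D at 0.051, and RAB2B was at 0.17 against KO for the libraries labelled KO+CFLAR. That scaling moved the median of all genes by 0.21 and 0.20 in these comparisons. Of 1106 combinations of gene and alternative in KO against WT, 1078 kept direction and call, 22 lost the call and 6 gained it. RAB44 lost its call without WT replicate 1 (adjusted p = 0.0825).

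With the replicate number as a block, RAB20 lost its call in the libraries labelled KO+CFLAR against WT (adjusted p = 0.0604), and 54 RAB genes were called in KO against WT, 55 in KO+STAMBP against KO and 54 for the libraries labelled KO+CFLAR, and 24 and 22 for these groups against WT. Deviations of libraries with the same number correlated at -0.0195 to 0.117 across 12782 genes. What the number marks is not given, and these values cannot settle whether such libraries share a batch. Leaving the libraries labelled KO+CFLAR out of the fit, an alternative added after seeing the data, gave 37 higher and 17 lower in KO against WT. DESeq2 called 53 RAB genes in KO against WT and 20 in KO+STAMBP against WT. With 2 libraries a group, genes under about 1 CPM are limited by counting error.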
